A study of Mus musculus with 21 samples.

Results

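Testes of fetal mice at gestation day 18 (gd18) were compared with testes at gestation day 14 (gd14), to describe change across late fetal life that shorter steps can miss. The comparison used the 3 arrays labelled gd18 (Theiler stage 26) and the 3 labelled gd14 (Theiler stage 22), 6 of the 21 arrays of the series. The 3 arrays of gestation day 16 (gd16, Theiler stage 24) lie between them and are described where they bear on the result. All 9 arrays came from males of the outbred CD-1 stock, wild type, with no treatment named in the labels. Per the labels, matings were timed within a 2 hour window, whole testes were excised and snap frozen, and RNA of these stages was not pooled. By the series' design text, a sample is both testes of 1 animal, with 1 animal taken per dam. Each array read 45101 probe sets, of which 34945 name 1 gene, and 14338 genes were tested, each by its brightest single-gene probe set. The statistical fit held 12 arrays, those of gd14, gd16, gd18 and postnatal day 2 (pnd2). The filter and the choice of probe set used all 20 testis arrays, among them pools of gestation days 11 and 12. Values are intensities on a linear scale, in the order replicates 4, 5 and 6 for gd18 and 10, 11 and 12 for gd14. Means carry the SD over 3 arrays.

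In the fetal testis, Sertoli cells enclose the germ cells in cords that are wrapped by peritubular myoid cells, and fetal Leydig cells between the cords make androgens. Male germ cells of late gestation stop dividing, shut down the pluripotency genes of the primordial germ cell and prepare transposon silencing by the piRNA pathway and DNA methylation. Around the cords, the organ builds connective tissue, vessels and resident macrophages.

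Of the 14338 genes tested, 5234 (36.5%) were called, meaning a limma moderated test of gd18 minus gd14 with a Benjamini-Hochberg adjusted p below 0.05. The expression of 2958 genes (20.6%) was higher and that of 2276 (15.9%) lower at gd18. These shares are the background for the counts of each gene list below. Changes are differences of log2(intensity + 22.4), which understate the change of dim genes, and the median over all genes tested was 0.05. At least 2-fold changes were called higher for 903 genes (6.3%) and lower for 386 (2.69%). The gd18 and gd14 arrays did not overlap for 6653 genes (46.4%), among them 4996 of the 5234 called. The number of arrays, 3 a stage, limits the precision. Across all probe sets except controls, arrays correlated at 0.967 to 0.972 within gd18 and 0.971 to 0.974 within gd14, against 0.942 to 0.954 between the stages. These correlations run across probe sets, which are not independent replicates. Replicate 6 stood apart within gd18. The summed intensity of 28 macrophage and leukocyte genes was 8643, 10204 and 17517 on gd18 replicates 4, 5 and 6, and that of 24 fetal germ cell and piRNA genes was 22439.6, 24838 and 41125. Both sums were highest on replicate 6. Leaving out that array, or another, moved some counts and medians.

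**Figure D1:**
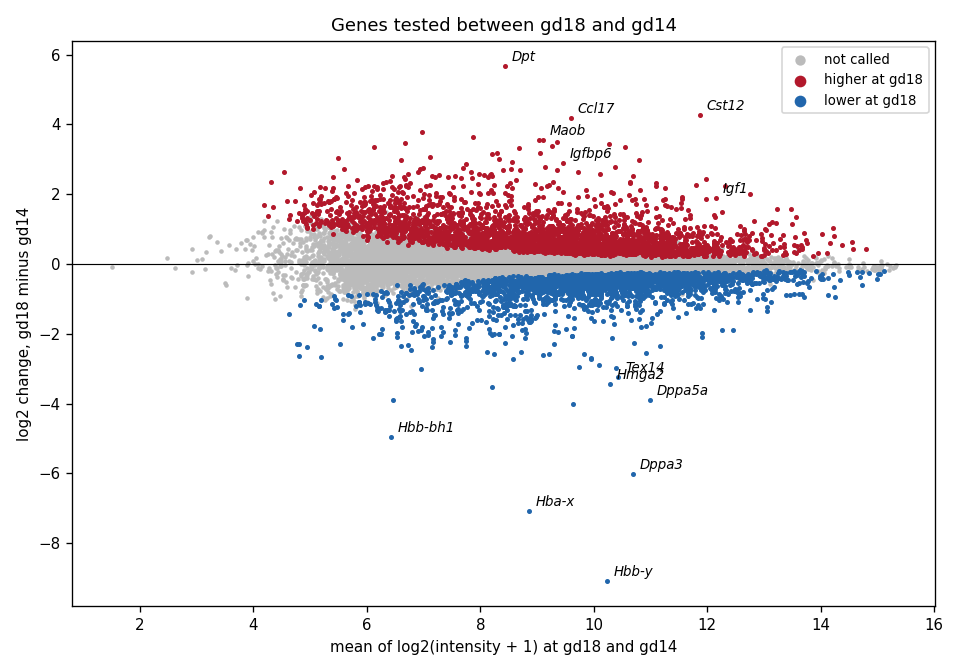
Change of each of the 14338 genes tested (vertical axis, log2 change gd18 minus gd14) against its mean level at the 2 stages (horizontal axis, mean of log2(intensity + 1)). Red points are the 2958 genes called higher and blue points the 2276 called lower at gd18. Dpt lies highest at 5.67 and Hbb-y lowest at -9.07.

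The 4 genes used to mark the comparison differed between the stages without overlap. Cst12, a cystatin gene expressed in Sertoli cells, read 17969.9, 15341 and 15121 on the gd18 arrays, against 1310.4, 477 and 837 on the gd14 arrays. Every gd18 value lay above every gd14 value, and the mean was 18.5-fold higher (log2 change 4.28 ± 0.31 SE, adjusted p = 1.12e-07). Eln, which encodes tropoelastin, the building block of elastic fibres, read 5536, 5126 and 4511 on the gd18 arrays, against 658, 639 and 575 on the gd14 arrays. The stages were far apart, with an 8.11-fold higher mean at gd18 (log2 change 2.97 ± 0.11 SE, adjusted p = 2.21e-10). Thbs2, encoding the matricellular protein thrombospondin 2, read 959, 1021 and 1124 on the gd18 arrays, against 124, 77.5 and 83.3 on the gd14 arrays. It too rose without overlap, by 10.9-fold (log2 change 3.19 ± 0.23 SE, adjusted p = 8.59e-08). Dppa3, known as Stella, a marker of primordial germ cells that protects DNA methylation in the early embryo, read 237, 145 and 204 on the gd18 arrays, against 14522, 13541 and 13972 on the gd14 arrays. All gd18 values were far below the gd14 values, and the gd14 mean was 71.7-fold the gd18 mean (log2 change -6.03 ± 0.35 SE, adjusted p = 1.28e-08). In whole-organ RNA, fewer cells of a type and less RNA of a gene per cell cannot be told apart.

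**Figure D2:**
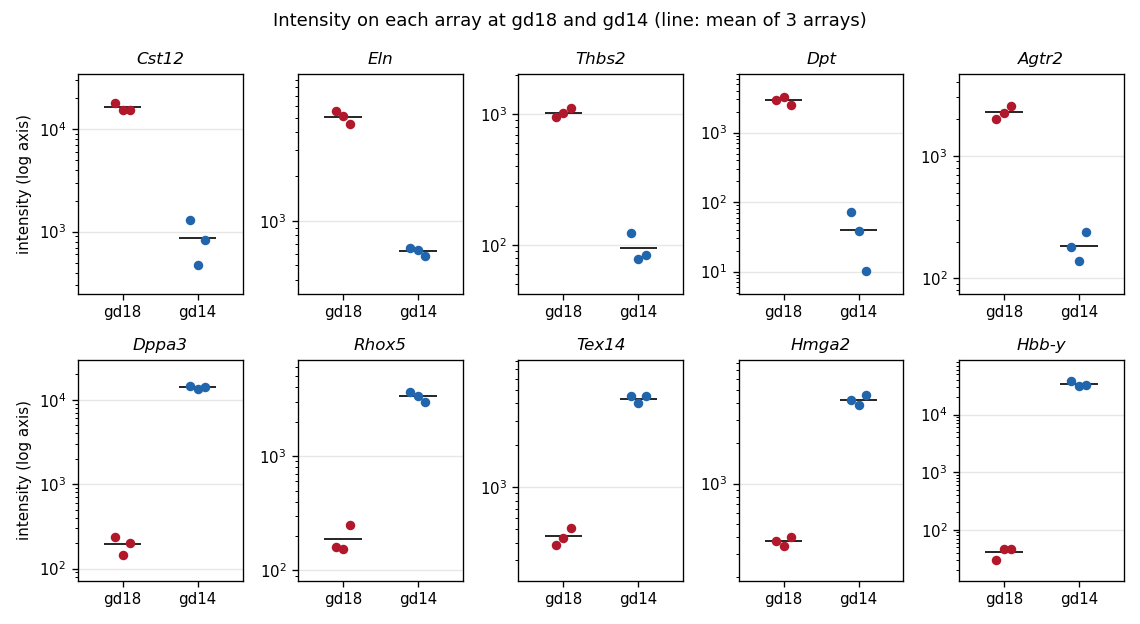
Intensity of 10 genes on each array at gd18 (red) and gd14 (blue), 1 point an array on a log axis, with a line at the mean of 3 arrays. The upper 5 genes were higher on every gd18 array, Cst12 at 17969.9, 15341 and 15121, and the lower 5 were lower on every gd18 array, Dppa3 at 237, 145 and 204.

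The 12 largest rises among called genes without overlap included matrix, steroid and immune genes. Dpt, encoding dermatopontin, a small matrix protein that binds decorin and collagen, led with 2961, 3306 and 2459.6 on the gd18 arrays, against 72.4, 38.2 and 10.3 on the gd14 arrays (log2 change 5.67 ± 0.32 SE, adjusted p = 9.39e-09). Its gd14 mean lay near background, meaning below 71.6, which is the 40th percentile over the testis arrays, and its rise is the largest among the genes tested on this scale. Ccl17, a chemokine that attracts T cells through the receptor Ccr4, read 3638, 3252 and 3274 on the gd18 arrays, against 156, 275 and 99.9 on the gd14 arrays. The stages were far apart, the gd18 mean being 19.1-fold the gd14 mean (log2 change 4.19 ± 0.37 SE, adjusted p = 9.18e-07). Agtr2, the type 2 receptor of angiotensin II, read 2015, 2256 and 2537 on the gd18 arrays, against 179, 139 and 239 on the gd14 arrays (log2 change 3.48 ± 0.18 SE, adjusted p = 3.44e-09). Cyp27a1, the mitochondrial sterol 27-hydroxylase, rose by 3.65 ± 0.21 (log2 ± SE), and Maob, a monoamine oxidase, by 3.56 ± 0.18. Ogn, which encodes the small leucine-rich proteoglycan osteoglycin, rose by 3.36 ± 0.13 and Serpina5, the protein C inhibitor, by 3.39 ± 0.25. Cidea, a lipid droplet protein, and Kcng2, a potassium channel subunit, rose by 3.80 ± 0.33 and 3.48 ± 0.50 with gd14 means near background. Lyz1, Hsd17b1 and Cst12 complete the 12 and are given with the macrophage and Sertoli genes.

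The 12 largest falls among called genes without overlap were led by embryonic globins and germ cell genes. Hbb-y and Hba-x, the epsilon-type and zeta-type globins of primitive red cells, were lower at -9.07 ± 0.51 and -7.08 ± 0.52 (log2 ± SE). Besides Dppa3, the germ cell genes Dppa5a, Gtsf1l, Tex14 and Dnd1 were among them. Rhox5, a homeobox gene of the X-linked Rhox cluster, read 160.1, 153 and 249.7 on the gd18 arrays, against 3676, 3362 and 2983 on the gd14 arrays. The stages were far apart (log2 change -4.03 ± 0.26 SE, adjusted p = 3.02e-08). Tex14, required for the bridges that join germ cells, read 386, 432 and 509.6 on the gd18 arrays, against 4476, 3990.3 and 4476 on the gd14 arrays, without overlap (log2 change -3.23 ± 0.24 SE, adjusted p = 1.32e-07). Hmga2, a chromatin protein of growing embryonic tissue, read 376, 344 and 396 on the gd18 arrays, against 4189, 3894 and 4565 on the gd14 arrays. The stages were far apart, and the gd14 mean was 11.3-fold the gd18 mean (log2 change -3.43 ± 0.17 SE, adjusted p = 2.42e-09). Liph, a phospholipase gene, was lower at -3.52 ± 0.21, and Iqcg, encoding an IQ motif protein, at -3.00 ± 0.40. The gd18 means of Iqcg, Gtsf1l and the 3 embryonic globins were near background.

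Genes of pluripotency and of the primordial germ cell were lower as a group. Of 28 tested, 19 were called lower (against 15.9% of all genes), 1 higher and 8 were not called. The median change was -1.03, against 0.05 over all genes. By step, the medians were -0.85 (gd16 minus gd14) and -0.27 (gd18 minus gd16). Pou5f1, the OCT4 transcription factor of pluripotent cells, read 312, 319.5 and 454 on the gd18 arrays, against 2303, 2367 and 2122 on the gd14 arrays. The gd14 mean was 6.26-fold the gd18 mean, without overlap (log2 change -2.59 ± 0.27 SE, adjusted p = 4.59e-06). Nanog, its partner, read 53.6, 38.8 and 24.0 on the gd18 arrays, against 378, 225 and 246 on the gd14 arrays, with the gd18 mean near background (log2 change -2.31 ± 0.29 SE, adjusted p = 2.2e-05). Dppa5a, an RNA-binding protein gene of pluripotent cells, read 370.2, 368 and 868 on the gd18 arrays, against 10057, 7218 and 6118 on the gd14 arrays (log2 change -3.89 ± 0.29 SE, adjusted p = 1.28e-07). Replicate 6 was the highest gd18 array and still far below gd14. Dnd1, an RNA-binding protein that germ cells need to survive and to stop cycling, read 549, 338 and 535 on the gd18 arrays, against 3720.3, 3754 and 4029.7 on the gd14 arrays (log2 change -2.99 ± 0.22 SE, adjusted p = 1.12e-07). Sox2 and Lin28a, a pluripotency factor and a let-7 inhibitor, were lower too, at -1.86 ± 0.40 and -0.68 ± 0.18 (log2 ± SE), and both calls were lost with all 20 testis arrays in the fit. The 1 member that rose was Klf4, a factor also used by somatic cells, at 0.99 ± 0.21 (adjusted p = 0.00185). Another probe set of Klf4 was not called, at 0.28.

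Genes of the fetal male germ cell and the piRNA pathway, which makes the small RNAs that silence transposons, were lower as a group as well. Of 24 tested, 18 were lower (against 15.9% of all genes), 1 higher and 5 not called, and 2 were higher without gd18 replicate 5. The median was -1.02 (-1.35 without gd18 replicate 6). Unlike those of the pluripotency genes, the step medians were 0.09 (gd16 minus gd14) and -0.93 (gd18 minus gd16). Ddx4, the VASA helicase of germ cells, read 1304, 1445 and 2402 on the gd18 arrays, against 5409, 4503 and 4418 on the gd14 arrays. The groups did not overlap, though gd18 replicate 6 was nearest to gd14 (log2 change -1.51 ± 0.20 SE, adjusted p = 3.36e-05). Tdrd5, a tudor protein of the piRNA machinery, read 259, 386 and 543 on the gd18 arrays, against 3000.2, 3357 and 2661 on the gd14 arrays (log2 change -2.91 ± 0.19 SE, adjusted p = 3.68e-08). Asz1, a germ granule protein, read 279, 327 and 534 on the gd18 arrays, against 2640.3, 2381 and 2625 on the gd14 arrays (log2 change -2.73 ± 0.24 SE, adjusted p = 9.18e-07). Neither overlapped between the stages, and both were highest within gd18 on replicate 6. Rnf17, also a tudor protein, and the RNA export factor gene Nxf2 on the X chromosome were lower at -2.07 ± 0.20 and -1.81 ± 0.23 (log2 ± SE). Dazl, an RNA-binding protein of germ cells, was lower by a smaller amount, 4224, 4068 and 5566 at gd18 and 9386, 7587 and 7521 at gd14 (log2 change -0.83 ± 0.15 SE, adjusted p = 0.000442), and lost its call with all 20 testis arrays in the fit. Dnmt3l, the cofactor of de novo DNA methylation, was not called, with 659, 989 and 2122 at gd18 and 1356, 966 and 1341 at gd14 (log2 change -0.11 ± 0.34 SE, adjusted p = 0.833). Dnmt3a, the methyltransferase itself, was higher by its brightest probe set, with 2163, 2002 and 2089 at gd18 and 1083, 1237 and 1147 at gd14 (log2 change 0.84 ± 0.10 SE, adjusted p = 1.28e-05). Its 3 other probe sets that differed from it were not called, at -0.38, -0.13 and 0.23, so the direction of Dnmt3a depends on the probe set.

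Upstream sequences of 4 piRNA pathway genes that were lower are shown, because the searched letters were found upstream of several members of this list. The palindrome CACGTG, the E-box bound by MAX-type factors, was sought on both strands in the 250 bases upstream of each RefSeq start (GRCm38.p6). It was present for 9 of the 22 tested members with a promoter in the table (40.9%), against 1854 of 27025 genes (6.86%). By call it stood upstream of 6 of the 17 members that were lower (35.3%), and also of Dnmt3a, which was higher, and of Dnmt3l and Tdrd9, which were not called. This was the highest share among 14 pairs of a motif and a list searched after the values were seen, with 5 motifs and 6 lists, and it is a description with no test. The same letters stood upstream of 1 of 18 pluripotency genes (5.56%), 2 of 26 cell division genes (7.69%) and 0 of 9 Leydig genes. The letters TTCCCGC, an E2F motif sought on both strands over the same 4 lists, were found for 3 of 22 piRNA genes (13.6%), 1 of 18 pluripotency genes (5.56%), 2 of 26 cell division genes (7.69%) and 0 of 9 Leydig genes, against 1184 of 27025 genes (4.38%). The letters CAAGGTCA, bound by SF1, were found in none of the 4 lists, against 408 of 27025 genes (1.51%). A match says nothing of binding. The 4 upstream stretches below are printed 5′ to 3′ on the gene's strand with the E-box in capitals, and their genes were named for the match.
Ddx4 (chr13:112652311-112652379, minus strand): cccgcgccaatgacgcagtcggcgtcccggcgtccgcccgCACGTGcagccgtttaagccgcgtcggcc
Mael (chr1:166238922-166238994, minus strand): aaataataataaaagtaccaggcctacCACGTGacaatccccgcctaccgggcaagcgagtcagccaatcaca
Mov10l1 (chr15:88982744-88982793, plus strand): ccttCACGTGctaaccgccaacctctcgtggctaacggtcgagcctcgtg
Pld6 (chr11:59787658-59787730, minus strand): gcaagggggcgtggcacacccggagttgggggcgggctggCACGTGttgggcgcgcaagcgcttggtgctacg
Mov10l1, the helicase that binds piRNA precursors, read 476, 541 and 948 on the gd18 arrays, against 2242, 2029 and 1752 on the gd14 arrays (log2 change -1.64 ± 0.23 SE, adjusted p = 5.89e-05). Mael, a nuage protein, and Pld6, a mitochondrial nuclease of piRNA processing, changed by -0.98 ± 0.22 and -0.87 ± 0.27 (adjusted p = 0.00295 and 0.0182). These 3 were lower at gd18, as was Ddx4 above.

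Some meiotic genes are transcribed by fetal male germ cells without entry into meiosis. Of 22 meiotic genes tested, 9 were lower and 1 higher, against 15.9% and 20.6% of all genes. The median change of the 22 was -0.34, and -0.65 without gd18 replicate 6. Sycp3, a structural protein of the synaptonemal complex, read 806, 779 and 1127 on the gd18 arrays, against 2517, 2147 and 2181 on the gd14 arrays. The groups did not overlap (log2 change -1.33 ± 0.17 SE, adjusted p = 2.29e-05). Sycp1 and Sycp2 of the same complex were lower at -1.59 ± 0.24 and -1.52 ± 0.18 (log2 ± SE), and Tex11, an X-linked meiotic gene, at -2.22 ± 0.33. Stra8, the retinoic acid target at the start of meiosis in the ovary, was not called, at 163, 150.3 and 132 at gd18 and 164, 127 and 80.9 at gd14 (log2 change 0.26 ± 0.34 SE, adjusted p = 0.588). The cohesin gene Rec8 also was not called (log2 change 0.25 ± 0.34 SE, adjusted p = 0.612). The 1 member higher was Mei1, needed for meiotic double-strand breaks, at 55.7, 62.8 and 86.8 at gd18 and 4.31, 43.3 and 23.7 at gd14. Both stage means lay near background (log2 change 1.06 ± 0.34 SE, adjusted p = 0.0235), and the call was lost in 4 alternative fits, among them those without gd18 replicate 6 or gd14 replicate 10. With all 20 testis arrays in the fit, 5 meiotic members were lower and 0 higher.

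Genes of spermatogonial stem and progenitor cells did not move as one. Of 20 tested, 2 were higher and 6 lower, against 20.6% and 15.9% of all genes, with a median of -0.10. The median was -0.04 without gd18 replicate 5, -0.15 and -0.16 without gd14 replicate 11 or 12, and 0.03, with the sign turned, without gd14 replicate 10. Gfra1, the receptor subunit for GDNF, read 126, 170.2 and 155 on the gd18 arrays, against 59.0, 57.3 and 71.5 on the gd14 arrays, without overlap (log2 change 1.02 ± 0.21 SE, adjusted p = 0.00137). The Gfra1 call was lost with all 20 testis arrays in the fit, and another, dim probe set of the gene was not called. Thy1, a surface protein, rose by 1.25 ± 0.25 (log2 ± SE). Id4, an inhibitor of basic helix-loop-helix factors in stem cells, read 632, 653 and 771 on the gd18 arrays, against 1489.8, 1274 and 1907 on the gd14 arrays (log2 change -1.14 ± 0.14 SE, adjusted p = 2.29e-05). Cdh1, the epithelial cadherin of germ cells, read 257, 287 and 275 on the gd18 arrays, against 1553, 1470.0 and 1292 on the gd14 arrays (log2 change -2.30 ± 0.22 SE, adjusted p = 1.69e-06). Both were lower on every gd18 array. Upp1, a uridine phosphorylase, and Lhx1, a homeobox factor, were lower at -1.61 ± 0.23 and -1.63 ± 0.30 (log2 ± SE), Lhx1 with a gd18 mean near background. For Lhx1, another probe set was not called, at -0.52. Zbtb16 and Ret, later markers of these cells, were not called, at 0.54 (adjusted p = 0.106) and -0.35 (adjusted p = 0.344), though Zbtb16 was called higher without gd18 replicate 5.

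Sertoli cell genes were mostly higher. Of 26 tested, 18 were higher (against 20.6% of all genes), 2 lower and 6 not called, with a median of 0.71. The median was 0.54 without gd18 replicate 4, 0.91 without gd18 replicate 6 and 0.51 without gd14 replicate 10. The summed intensity was 173279, 146637 and 121286 on the gd18 arrays, against 85753, 90429 and 85057 on the gd14 arrays. Replicate 4 was the highest and replicate 6 the lowest of gd18, all above gd14. Inha, the inhibin alpha subunit, read 24978, 20417 and 14225 on the gd18 arrays, against 5563, 7280.2 and 6601 on the gd14 arrays (log2 change 1.58 ± 0.17 SE, adjusted p = 5.58e-06). Fshr, the receptor of follicle-stimulating hormone, read 400.2, 339 and 309 on the gd18 arrays, against 115, 95.8 and 127 on the gd14 arrays, without overlap (log2 change 1.46 ± 0.17 SE, adjusted p = 1.02e-05). Hsd17b1, which in the fetal mouse Sertoli cell helps turn androstenedione into testosterone, read 5046, 4477 and 2939 on the gd18 arrays, against 277, 496 and 324 on the gd14 arrays (log2 change 3.43 ± 0.21 SE, adjusted p = 2.12e-08). Shbg, the sex hormone-binding globulin, read 2247, 995 and 1299 on the gd18 arrays, against 256, 361 and 370.3 on the gd14 arrays (log2 change 2.06 ± 0.25 SE, adjusted p = 1.72e-05). Inha, Hsd17b1 and Shbg too were higher on every gd18 array, each with its highest value on replicate 4. The change was 1.42 ± 0.18 for Nr0b1, the DAX1 nuclear receptor, 1.17 ± 0.25 for the transcription factor Sox8 and 0.86 ± 0.15 for the glutathione transferase Gstm6 (log2 ± SE), the call of Gstm6 being lost with all 20 testis arrays in the fit.

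Other Sertoli genes were called in either direction. Sox9, which directs Sertoli fate, read 1166, 1191 and 770.1 on the gd18 arrays, against 614, 567 and 684 on the gd14 arrays (log2 change 0.70 ± 0.15 SE, adjusted p = 0.00181). Dhh, the hedgehog ligand of Sertoli cells, read 5283, 3893 and 4179 on the gd18 arrays, against 2727, 3500.4 and 3419 on the gd14 arrays (log2 change 0.46 ± 0.12 SE, adjusted p = 0.00666). Both were higher without overlap, and both lost the call with all 20 testis arrays in the fit, where 9 Sertoli members were higher and 1 lower. Amh, the anti-Müllerian hormone, read 3265, 2149 and 1646 on the gd18 arrays, against 990.2, 1752 and 1456 on the gd14 arrays, with overlap (log2 change 0.72 ± 0.26 SE, adjusted p = 0.038), and its call was lost without gd18 replicate 4 or 5 or gd14 replicate 10 or 12, and with all 20 testis arrays in the fit. The members that fell were Col9a3, a collagen IX chain, with 334, 228 and 345 at gd18 and 2484, 2271 and 2547 at gd14 (log2 change -2.94 ± 0.25 SE, adjusted p = 5.53e-07), and Cldn11, a tight junction claudin, with 226, 303 and 226 at gd18 and 456, 345 and 405 at gd14 (log2 change -0.63 ± 0.20 SE, adjusted p = 0.0222). The Cldn11 call was lost without gd18 replicate 4 or 6 or gd14 replicate 10 or 12, and with all 20 testis arrays in the fit.

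Genes of the fetal Leydig cell and of steroidogenesis differed in direction over the 4 days. Of 19 tested, 8 were higher and 3 lower, against 20.6% and 15.9% of all genes, the lower count being near its share. The largest rises were those of Thbs2 and Itih5, and the steroid synthesis genes are given first. The median was 0.21 (0.12 without gd14 replicate 12). The counts were 5 higher and 1 lower without gd14 replicate 10, 1 lower without gd18 replicate 4, 5 lower without gd18 replicate 5 and 1 lower with all 20 testis arrays in the fit. Cyp11a1, which cleaves the cholesterol side chain as the first step of steroid synthesis, was not called, at 4879, 6335 and 5484 at gd18 and 6326, 6324 and 6250.1 at gd14 (log2 change -0.19 ± 0.12 SE, adjusted p = 0.245). Cyp17a1, the 17-hydroxylase of androgen synthesis, was not called either, at 12026, 18318 and 8585 at gd18 and 16564, 16806 and 17994 at gd14 (log2 change -0.47 ± 0.31 SE, adjusted p = 0.258). Hsd3b1, which makes progesterone, was higher (log2 change 0.41 ± 0.11 SE, adjusted p = 0.00834), a call lost without gd14 replicate 10 and with all 20 testis arrays in the fit. Star, which brings cholesterol into mitochondria, read 1574, 3390.1 and 1140.1 on the gd18 arrays, against 3274, 3081 and 3855 on the gd14 arrays, with overlap through gd18 replicate 5 (log2 change -0.88 ± 0.32 SE, adjusted p = 0.0404). Its other 2 probe sets were not called, and the call was lost without gd18 replicate 4 or 6 or any single gd14 array, and with all 20 testis arrays in the fit. Members with larger changes included Thbs2, given above and also expressed in stroma, Itih5, which encodes an inter-alpha-trypsin inhibitor heavy chain, at 2.27 ± 0.13, and Mc2r, the ACTH receptor, at -1.42 ± 0.24 (log2 ± SE, adjusted p = 1.55e-08 and 0.000263).

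Star and Cyp11a1 had their highest mean of the 3 stages at gd16. Star averaged 3403 ± 403 at gd14, 6284 ± 2060.3 at gd16 and 2035 ± 1194 at gd18. Its log2 change was 0.84 over the first step (adjusted p = 0.0764) and -1.72 over the second (adjusted p = 0.00285). The steps share arrays with each other and with the 4-day comparison. Cyp11a1 averaged 6300.3 ± 43.5 at gd14, 10985 ± 1968 at gd16 and 5566 ± 732 at gd18, a log2 change of 0.79 over the first step (adjusted p = 0.000426) and -0.97 over the second (adjusted p = 0.000168). The summed intensity of the Leydig list was 70906, 75656 and 77149 on the gd14 arrays, 125448, 105606 and 103270.0 on the gd16 arrays and 77816, 95054 and 70023 on the gd18 arrays.

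Genes of cholesterol synthesis and uptake ended lower. Of 20 tested, 10 were lower, 0 higher and 10 not called, against 15.9% lower and 20.6% higher of all genes. Without gd18 replicate 6, 1 was higher. The median was -0.38 (-0.19 without gd18 replicate 6), while the medians of the steps were 0.48 (gd16 minus gd14) and -0.77 (gd18 minus gd16). Tm7sf2, a sterol reductase, read 360.3, 737 and 242 on the gd18 arrays, against 944, 879 and 928 on the gd14 arrays, and 2471, 1765 and 1743 on the gd16 arrays. All gd16 values were above both ends (log2 change -1.14 ± 0.26 SE, adjusted p = 0.00332). Mvd, the mevalonate decarboxylase, read 484, 530.1 and 340.0 on the gd18 arrays, against 751, 772 and 729 on the gd14 arrays (log2 change -0.73 ± 0.15 SE, adjusted p = 0.00124). Cyp51, the lanosterol demethylase, and Hsd17b7, a late enzyme of the pathway, changed by -0.63 ± 0.15 and -0.65 ± 0.14 (log2 ± SE), though another probe set of Cyp51 and 3 of Hsd17b7 were not called. Hmgcs1, which makes HMG-CoA early in the pathway, was not called, at 15016, 13701 and 8960.2 at gd18 and 13330.0, 13086 and 13642 at gd14 (log2 change -0.12 ± 0.15 SE, adjusted p = 0.571), and neither were Mvk (-0.16) and Pmvk (-0.26). The letters TCACNCCAC, a sterol response element sought on both strands of the same upstream windows, were found for 1 of 16 tested members, Hmgcs1, and for 331 of 27025 genes (1.22%).

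**Figure D3:**
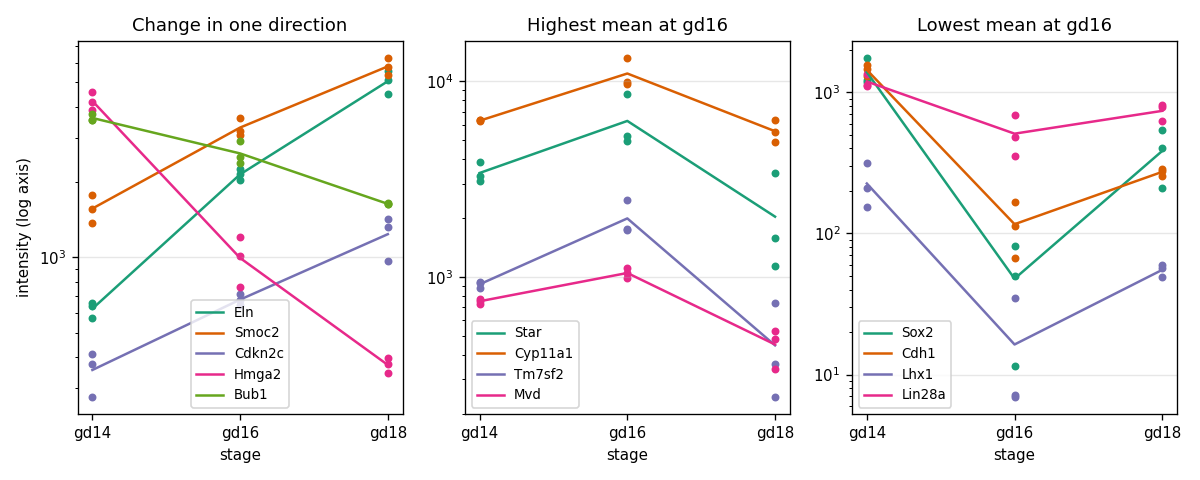
Intensity of 13 genes at gd14, gd16 and gd18 on a log axis, 1 point an array and a line through the means of 3 arrays. Eln, Smoc2 and Cdkn2c were higher and Hmga2 and Bub1 lower at each later mean, Star, Cyp11a1, Tm7sf2 and Mvd had their highest mean at gd16, and Sox2, Cdh1, Lhx1 and Lin28a their lowest.

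Genes of the connective tissue matrix were mostly higher. Of 19 genes of the elastic fibre tested, 15 were higher and 0 lower, against 20.6% and 15.9% of all genes. The median was 0.97. Beside Eln, Lox, the lysyl oxidase that crosslinks elastin and collagen, read 3638, 3307 and 4081 on the gd18 arrays, against 683, 679.7 and 719 on the gd14 arrays (log2 change 2.36 ± 0.11 SE, adjusted p = 2.42e-09). Efemp1, a fibulin, read 1391, 938 and 1011 on the gd18 arrays, against 126, 202 and 130.0 on the gd14 arrays (log2 change 2.70 ± 0.20 SE, adjusted p = 1.13e-07). Lox and Efemp1 showed no overlap. Ltbp2, a fibrillin-binding protein, rose by 2.63 ± 0.24 (log2 ± SE) with a gd14 mean near background. Fbn2, a fibrillin of embryonic tissue, and Fbln1, a fibulin, rose by 0.72 ± 0.10 and 0.97 ± 0.12. Fbln2 was not called, at 2867, 2611 and 2228 at gd18 and 1475, 2581 and 2607 at gd14 (log2 change 0.25 ± 0.18 SE, adjusted p = 0.309).

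Of 31 collagen chains, 18 were higher and 2 lower, against 20.6% and 15.9% of all genes (median 0.65). Col1a1, a chain of type I collagen, read 17177, 15726 and 16641 on the gd18 arrays, against 5037, 6153 and 5449.8 on the gd14 arrays (log2 change 1.57 ± 0.10 SE, adjusted p = 4.27e-08). Col3a1, of type III, read 33567, 32265 and 34370.2 on the gd18 arrays, against 24049.7, 24355 and 25492 on the gd14 arrays, a smaller change on bright values (log2 change 0.44 ± 0.08 SE, adjusted p = 0.000745) whose call was lost with all 20 testis arrays in the fit. Col1a2, the other chain of type I collagen, rose by 1.03 ± 0.09 (log2 ± SE), while its dim second probe set was not called. Col4a4, a chain of basement membrane collagen, read 1998, 1497 and 1523 on the gd18 arrays, against 398, 440.2 and 435 on the gd14 arrays (log2 change 1.91 ± 0.12 SE, adjusted p = 3e-08). Col1a1, Col3a1 and Col4a4 were higher on every gd18 array. Col5a3 rose by 1.71 ± 0.21. Col2a1, the cartilage collagen, was not called, at 143, 171 and 329 at gd18 and 157, 99.9 and 101 at gd14 (adjusted p = 0.131). The 2 members called lower were Col9a3, given with the Sertoli genes, and Col27a1, at -0.36 ± 0.13. The Col27a1 call was lost without gd18 replicate 4 or 5 or gd14 replicate 10 or 12, and with all 20 testis arrays in the fit. Another Col27a1 probe set was not called, at 0.03.

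Among matricellular proteins and proteoglycans, 21 of 29 were higher and 1 lower, against 20.6% and 15.9% of all genes (median 1.02). Ogn read 4767, 5453 and 4389 on the gd18 arrays, against 519, 372 and 477 on the gd14 arrays (log2 change 3.36 ± 0.13 SE, adjusted p = 2.21e-10). Aspn, encoding asporin, read 597, 999.7 and 703 on the gd18 arrays, against 119, 126 and 92.8 on the gd14 arrays (log2 change 2.52 ± 0.18 SE, adjusted p = 1.13e-07). Every gd18 value of both lay above every gd14 value. The other thrombospondin genes differed, with Thbs3 and Thbs4 higher at 2.23 ± 0.20 and 1.98 ± 0.32 and Thbs1 not called at -0.13 ± 0.18 (log2 ± SE). Thbs4 stood at 406, 257 and 594 on the gd16 arrays. The 1 member called lower was Spon1, a spondin, at -0.75 ± 0.20, whose call was lost with all 20 testis arrays in the fit. Other probe sets of Spon1 were not called, at -0.74 and -0.67.

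Of 19 laminin and basement membrane genes, 11 were higher and 1 lower, against 20.6% and 15.9% of all genes, with a median of 0.53. Without gd18 replicate 6, 2 were lower, and 6 were higher when all 20 testis arrays were fitted. Lama2, the laminin chain of muscle and stromal basement membranes, read 4984, 3697 and 3483 on the gd18 arrays, against 693, 717 and 621 on the gd14 arrays (log2 change 2.53 ± 0.12 SE, adjusted p = 2.42e-09). Lamc3, a laminin gamma chain, read 1354, 954 and 808 on the gd18 arrays, against 216, 266 and 284 on the gd14 arrays (log2 change 1.91 ± 0.17 SE, adjusted p = 7.45e-07). Neither laminin gene overlapped between the stages. Lama3, an epithelial laminin chain, rose by 1.12 ± 0.15 (log2 ± SE). Lama1, the chain of early epithelial basement membranes, was not called at 0.38 ± 0.16 but was called without gd18 replicate 6 or gd14 replicate 11. Frem1, a protein of embryonic basement membranes, was lower, at 691, 649 and 854 at gd18 and 1193, 1299 and 1247 at gd14 (log2 change -0.76 ± 0.13 SE, adjusted p = 0.000369), a call lost with all 20 testis arrays in the fit.

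Peritubular myoid and smooth muscle genes were higher for 14 of 21 tested and lower for 0, against 20.6% and 15.9% of all genes. The median was 0.88. With all 20 testis arrays in the fit 9 were higher. Myh11, the smooth muscle myosin heavy chain, read 1563, 1220.5 and 1265 on the gd18 arrays, against 249.9, 305 and 227 on the gd14 arrays (log2 change 2.28 ± 0.21 SE, adjusted p = 1.32e-06). Tagln, the actin-binding protein transgelin, read 5350.4, 4561 and 3799 on the gd18 arrays, against 1316, 1183 and 1262 on the gd14 arrays (log2 change 1.84 ± 0.18 SE, adjusted p = 2.3e-06). Cnn1, encoding calponin, read 410.0, 291 and 351 on the gd18 arrays, against 42.0, 15.2 and 20.6 on the gd14 arrays, with the gd14 mean near background (log2 change 2.98 ± 0.36 SE, adjusted p = 1.67e-05). These 3 genes of the contractile apparatus were higher on every gd18 array. Actg2, the enteric smooth muscle actin, rose by 2.04 ± 0.32 (log2 ± SE). Acta2, the smooth muscle actin that marks peritubular myoid cells, read 19798, 17124 and 15604 on the gd18 arrays, against 10646, 11054 and 10748 on the gd14 arrays (log2 change 0.69 ± 0.12 SE, adjusted p = 0.000372) and lost its call with all 20 testis arrays in the fit. Beside these, 8 of 21 striated muscle genes were also higher, against 20.6% of all genes. The 21 striated muscle genes summed to 3511, 3825 and 4880.2 at gd18 and 3112, 2666 and 2665 at gd14, without overlap. Their part in the smooth muscle and matrix results was not tested.

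The CArG box, the motif of serum response factor in muscle genes, was sought in the same upstream windows. It reads alike on both strands. It was found for 2 of 16 tested members with a promoter in the table (12.5%), both of them called higher, against 439 of 27025 genes (1.62%). Both stretches are shown 5′ to 3′ on the plus strand (GRCm38.p6, RefSeq) with the box in capitals, and their genes were named for the match.
Cnn2 (chr10:79988504-79988593): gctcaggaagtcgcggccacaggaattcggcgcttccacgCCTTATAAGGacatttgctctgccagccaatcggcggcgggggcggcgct
Myl9 (chr2:156775263-156775352): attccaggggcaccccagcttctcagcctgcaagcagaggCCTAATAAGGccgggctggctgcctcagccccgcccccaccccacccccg
Cnn2, a calponin, read 5016, 4875 and 3663 on the gd18 arrays, against 2682, 2801 and 3030.5 on the gd14 arrays (log2 change 0.65 ± 0.12 SE, adjusted p = 0.000745). Myl9, a regulatory myosin light chain, read 10377, 9792 and 8688 on the gd18 arrays, against 4906, 5190.1 and 5464 on the gd14 arrays (log2 change 0.89 ± 0.11 SE, adjusted p = 2.19e-05). The boxes lie 56 to 47 bases and 161 to 152 bases upstream of the start. No test links the letters with the change.

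Interstitial and stromal progenitor genes were seldom called. Of 23 tested, 3 were higher and 2 lower, a share below that of all genes in both directions, with a median of -0.02. The median lay between -0.07 without gd14 replicate 10 and 0.05 without gd18 replicate 4, so that its sign was not settled. The higher count was 5 without gd18 replicate 5, and the lower count 1 with all 20 testis arrays in the fit. Tcf21, a transcription factor of stromal progenitors, read 13158, 14084 and 12427 at gd18 and 13889.6, 11924 and 14161 at gd14, fully interleaved (log2 change -0.01 ± 0.09 SE, adjusted p = 0.955). Nr2f2, a nuclear receptor of the same cells, was not called (log2 change -0.24 ± 0.20 SE, adjusted p = 0.361). Smoc2, a secreted calcium-binding protein, read 6286, 5761 and 5343 on the gd18 arrays, against 1560.0, 1773 and 1369 on the gd14 arrays (log2 change 1.88 ± 0.10 SE, adjusted p = 6.44e-09). Pdgfra, a receptor of platelet-derived growth factor, was higher at 0.59 ± 0.09 (log2 ± SE), while Pdgfrb, the related receptor of perivascular cells, was lower at -0.81 ± 0.12, and both calls were lost with all 20 testis arrays in the fit. Another Pdgfrb probe set was not called, at -0.41. Gli1, a target of hedgehog signalling, rose by 0.59 ± 0.12, and Hey1, a Notch target, changed by -0.53 ± 0.13 (adjusted p = 0.00521).

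Endothelial genes were more often higher than lower. Of 26 tested, 8 were higher and 3 lower, against 20.6% and 15.9% of all genes. The median was 0.36, and 5 were higher with all 20 testis arrays in the fit. Sox18, a transcription factor of vessels and lymphatics, read 1554, 1734 and 1629 on the gd18 arrays, against 592, 651 and 621 on the gd14 arrays (log2 change 1.37 ± 0.10 SE, adjusted p = 8.52e-08). Cd34, a sialomucin of vessels and stroma, read 2013, 1965 and 1693 on the gd18 arrays, against 643, 764 and 767 on the gd14 arrays (log2 change 1.36 ± 0.11 SE, adjusted p = 3.4e-07). Lyve1, the hyaluronan receptor of lymphatic vessels and of some macrophages, read 191, 296 and 521 on the gd18 arrays, against 50.3, 30.5 and 70.0 on the gd14 arrays, highest on replicate 6 (log2 change 2.23 ± 0.33 SE, adjusted p = 0.000103). All 3 were higher on every gd18 array. Plvap, of fenestrated vessels, and Ets1, an endothelial transcription factor, were lower at -0.81 ± 0.14 and -0.94 ± 0.15 (log2 ± SE). Another Ets1 probe set was not called, at -0.46. Pecam1, the pan-endothelial CD31, was not called, at 643, 676 and 727 at gd18 and 537, 583 and 545 at gd14 (log2 change 0.29 ± 0.14 SE, adjusted p = 0.12). Cdh5, the VE-cadherin, was higher by its brightest probe set (log2 change 1.25 ± 0.27 SE, adjusted p = 0.00203) but not by a dimmer one.

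Macrophage and leukocyte genes had no member lower. Of 28 tested, 22 were higher and 0 lower, against 20.6% and 15.9% of all genes, with a median of 1.11. The summed intensity of the 28 was 8643, 10204 and 17517 on the gd18 arrays, against 4323, 3853 and 4898 on the gd14 arrays. Replicate 6 carried the highest sum by far, and the other 2 gd18 arrays also lay above all gd14 arrays. Csf1r, the receptor macrophages need to survive, read 1149.8, 1382 and 1883 on the gd18 arrays, against 474, 406 and 668 on the gd14 arrays, without overlap (log2 change 1.47 ± 0.19 SE, adjusted p = 3.57e-05), while a dimmer probe set was not called. C1qa, a complement chain made by tissue macrophages, read 425, 444 and 948 on the gd18 arrays, against 115, 145 and 234 on the gd14 arrays (log2 change 1.70 ± 0.30 SE, adjusted p = 0.000398), and C1qc of the same complex rose by 1.76 ± 0.31 (log2 ± SE). Lyz2, the lysozyme of myeloid cells, read 572, 854 and 1597 on the gd18 arrays, against 138, 134 and 196 on the gd14 arrays (log2 change 2.42 ± 0.28 SE, adjusted p = 9.79e-06). Lyz1 read 1172, 1559.9 and 3258 on the gd18 arrays, against 169, 103 and 141 on the gd14 arrays on a probe set whose name marks possible cross-hybridisation within the lysozyme family (log2 change 3.55 ± 0.30 SE, adjusted p = 5.07e-07). Adgre1, the F4/80 antigen, and Cd68, a lysosomal protein, were higher too, at 0.77 ± 0.21 and 0.89 ± 0.19, the call of Adgre1 being lost with all 20 testis arrays in the fit. Cd14, the lipopolysaccharide co-receptor, was higher at 0.90 ± 0.30, a call lost without gd18 replicate 4 or 6 or gd14 replicate 10 or 12. Without gd18 replicate 6, 17 members were higher and the median change was 0.90.

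**Figure D4:**
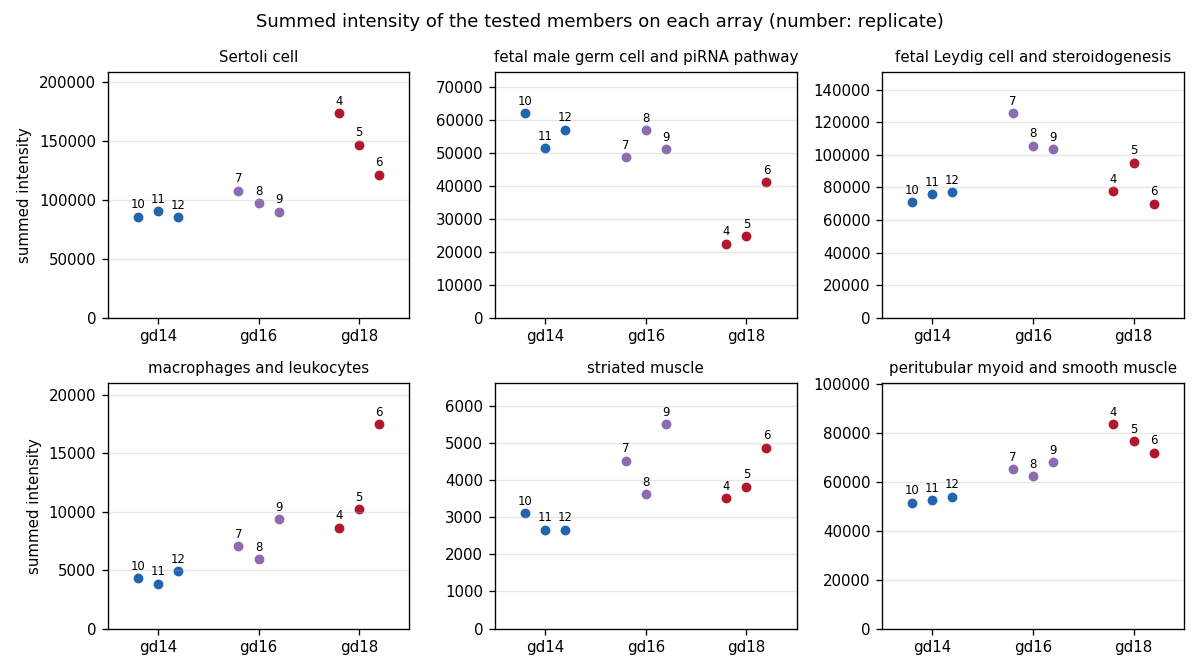
Summed intensity of the tested members of 6 gene lists on each array of gd14, gd16 and gd18, 1 point an array with its replicate number. The macrophage sum was 8643, 10204 and 17517 on the gd18 arrays and 4323, 3853 and 4898 on the gd14 arrays, and the Leydig sum was highest at gd16.

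Embryonic globins were lower at gd18 while a gene of heme synthesis was higher. Hbb-y read 30.1, 46.9 and 46.5 on the gd18 arrays, against 37955, 31287 and 32969 on the gd14 arrays, Hba-x 24.0, 9.41 and 59.0 on the gd18 arrays, against 5278, 6773 and 8320.0 on the gd14 arrays, and Hbb-bh1, a further embryonic beta-like globin, 9.98, 2.85 and 6.97 on the gd18 arrays, against 575, 727 and 1592 on the gd14 arrays. All gd18 values were near background and all gd14 values high, with log2 changes of -9.07 ± 0.51, -7.08 ± 0.52 and -4.96 ± 0.43 (SE, adjusted p = 9.42e-09, 1.2e-07 and 7.23e-07). The gd16 arrays were between and far apart, with Hbb-y at 1292, 8957 and 1152, replicate 8 the highest. Alas2, the first enzyme of heme synthesis in red cells, read 2020.2, 3266 and 1082 on the gd18 arrays, against 828, 813 and 841 on the gd14 arrays, higher without overlap (log2 change 1.20 ± 0.29 SE, adjusted p = 0.00455). Hbb-b2, an adult globin, was not called, at 909, 1183 and 603 at gd18 and 909.5, 502 and 594 at gd14 (log2 change 0.41 ± 0.29 SE, adjusted p = 0.3), and cross-hybridisation between globin probe sets was not tested. Of 15 erythroid genes tested, 3 were lower and 2 higher, against 15.9% and 20.6% of all genes. The 3 lower were embryonic globins, and the 2 higher were Alas2 and the transcription factor Gata1. The Gata1 call (adjusted p = 0.049) was lost in most alternative fits. Without gd18 replicate 5, 5 were lower.

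Most cell division genes were not called, and those called were lower. Of 35 cell division genes tested, 9 were lower (against 15.9% of all genes), 0 higher (against 20.6%) and 26 not called, with a median of -0.09. The median was -0.04 without gd18 replicate 6, -0.16 without gd18 replicate 4 and -0.14 without gd14 replicate 10. Without gd18 replicate 6, 3 were higher, and with quantile normalization 2. Bub1, a spindle checkpoint kinase, read 1628, 1645 and 1638 on the gd18 arrays, against 3750.4, 3529 and 3541 on the gd14 arrays, without overlap (log2 change -1.13 ± 0.09 SE, adjusted p = 1.92e-07), while a dim second probe set was not called. Bub1b and Ttk, checkpoint kinases too, and Cdc20, an activator of the anaphase-promoting complex, were lower at -0.57 ± 0.16, -0.59 ± 0.11 and -0.57 ± 0.09 (log2 ± SE). Other probe sets of Ttk and Cdc20 were not called. Mki67, the Ki-67 antigen of cycling cells, was not called, at 5592, 5530.5 and 4177 at gd18 and 4121, 4675 and 4792 at gd14 (log2 change 0.16 ± 0.11 SE, adjusted p = 0.263), though it was higher without gd18 replicate 6. Top2a and Ccna2 were not called either (-0.23 and 0.24), though Top2a was called lower without gd14 replicate 11.

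Among 15 cell cycle inhibitors, 4 were higher and 2 lower, against 20.6% and 15.9% of all genes. The median was 0.12, but 0.18 without gd18 replicate 4, 0.04 without gd18 replicate 6 and 0.03 without gd14 replicate 10. With all 20 testis arrays in the fit 0 were lower. Cdkn2c, the INK4 family inhibitor p18, read 1419.6, 1324 and 971 on the gd18 arrays, against 276, 377 and 412 on the gd14 arrays (log2 change 1.74 ± 0.15 SE, adjusted p = 8.05e-07). Gadd45b, a stress-induced growth arrest gene, read 931, 850.0 and 889 on the gd18 arrays, against 334, 298 and 365 on the gd14 arrays (log2 change 1.37 ± 0.20 SE, adjusted p = 7.26e-05), although its 2 dimmer probe sets were not called. Rbl2, the p130 pocket protein, rose by 0.79 ± 0.13 (log2 ± SE). Rb1, the retinoblastoma protein, was lower at -0.54 ± 0.11 and Cdkn2b at -0.84 ± 0.22, both calls lost with all 20 testis arrays in the fit. Cdkn1b, Cdkn1c and Cdkn1a were not called (0.18, 0.12 and -0.43).

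Of 11 genes of the embryonic growth programme tested, 5 were lower and 2 higher, against 15.9% and 20.6% of all genes. The median of -0.35 lay between -0.17 and -0.56 when 1 gd14 array was left out and was -0.25 without gd18 replicate 6. With all 20 testis arrays in the fit, 3 members were lower. Beside Hmga2, Arid3b, an AT-rich DNA-binding protein, read 146, 125 and 175 on the gd18 arrays, against 617, 903 and 529 on the gd14 arrays (log2 change -2.02 ± 0.25 SE, adjusted p = 1.75e-05). Igf2bp3, an mRNA-binding protein of embryonic tissue, was lower at -0.56 ± 0.08 (log2 ± SE), while 2 other probe sets were not called. The higher members were Dlk1, a Notch-like imprinted protein of progenitor cells, with 20555, 19377 and 17959 at gd18 and 6569, 9278 and 7237 at gd14 (log2 change 1.34 ± 0.12 SE, adjusted p = 1.31e-06), and Plagl1, an imprinted zinc finger factor, at 0.54 ± 0.08. Imprinted genes as a whole showed 7 of 26 higher and 4 lower (median 0.08), against 20.6% and 15.9% of all genes. The median was 0.02 without gd18 replicate 6, 0.14 without gd14 replicate 11 and 0.12 without gd14 replicate 12, and 2 were lower when gd14 replicate 10, 11 or 12 was left out. Meg3, the noncoding RNA of the Dlk1 region, was higher at 1.17 ± 0.13 by its brightest probe set and not by 4 dimmer ones. Asb4, encoding an ankyrin repeat protein, was lower at -1.96 ± 0.30. Mest, a lipase-like gene, was lower at -0.35 ± 0.08. Igf2 itself was not called, with 11193, 9570.1 and 10045 at gd18 and 9265, 10816 and 10592 at gd14 (log2 change 0.01 ± 0.11 SE, adjusted p = 0.972).

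The insulin-like growth factor genes were higher for 5 of 16 and lower for 1, against 20.6% and 15.9% of all genes (median 0.33). Igf1, the growth factor that acts on Igf1r, read 8662, 9621 and 8179.7 on the gd18 arrays, against 2165, 2254 and 2646 on the gd14 arrays (log2 change 1.90 ± 0.12 SE, adjusted p = 2.47e-08). Igfbp6, a binding protein that prefers Igf2, read 2352, 1974 and 1682 on the gd18 arrays, against 222, 250.3 and 263 on the gd14 arrays (log2 change 2.91 ± 0.13 SE, adjusted p = 1.69e-09). Htra1, a protease that cleaves binding proteins and matrix, read 4441, 4918 and 4555 on the gd18 arrays, against 1003, 1528 and 1313 on the gd14 arrays (log2 change 1.86 ± 0.14 SE, adjusted p = 1.9e-07). The stages did not overlap for these 3 genes. Irs1, the receptor substrate, was higher at 0.48 ± 0.10 (log2 ± SE). Igf1r was higher at 0.36 ± 0.10 by its brightest probe set, but 4 others were not called and 2 of these had the opposite sign. The Igf1r call was also lost without gd14 replicate 10. Igfbp2 was lower at -0.53 ± 0.19, a call lost without gd18 replicate 4 or 5 or any single gd14 array, and with all 20 testis arrays in the fit.

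Receptors for hormones were higher for 10 of 19 and lower for 1, against 20.6% and 15.9% of all genes. The median was 0.36 (0.62 without gd18 replicate 6). Esr1, the estrogen receptor alpha, read 1003, 1275 and 1176 on the gd18 arrays, against 486, 491 and 443 on the gd14 arrays (log2 change 1.24 ± 0.13 SE, adjusted p = 5.72e-06). Nr3c1, the glucocorticoid receptor, read 1076, 1128 and 1207 on the gd18 arrays, against 496, 568 and 592 on the gd14 arrays (log2 change 1.02 ± 0.11 SE, adjusted p = 4.72e-06). Both were higher on every gd18 array, and both had dimmer probe sets that were not called. Thra, a thyroid hormone receptor, was higher at 0.85 ± 0.14 (log2 ± SE), and Pgr, the progesterone receptor, at 1.23 ± 0.32. Esr2 was not called (log2 change 0.23 ± 0.25 SE, adjusted p = 0.511). Nr1d2, a nuclear receptor of the circadian clock, was the 1 member lower, at 1129, 1154 and 1757 at gd18 and 2777, 2177 and 2343 at gd14 (log2 change -0.86 ± 0.17 SE, adjusted p = 0.00107).

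Of 18 retinoic acid genes, 5 were higher and 1 lower, against 20.6% and 15.9% of all genes. The median was 0.17, but 0.26 without gd18 replicate 5 and 0.08 without gd14 replicate 11. With all 20 testis arrays in the fit 3 were higher and 0 lower. Lrat, which esterifies retinol for storage, read 213, 202 and 227 on the gd18 arrays, against 31.7, 42.7 and 55.4 on the gd14 arrays, with a gd14 mean near background (log2 change 1.86 ± 0.27 SE, adjusted p = 8.95e-05). Stra6, a retinol transporter, read 823, 349.6 and 492 on the gd18 arrays, against 91.0, 166 and 91.5 on the gd14 arrays (log2 change 2.02 ± 0.39 SE, adjusted p = 0.000929). Neither overlapped between the stages. Rara, a retinoic acid receptor, was higher at 0.90 ± 0.13 (log2 ± SE). Aldh1a2, a retinoic acid synthase of the mesonephric region, was lower at -0.69 ± 0.16, a call lost with all 20 testis arrays in the fit. Cyp26b1, the enzyme that keeps retinoic acid from fetal male germ cells, was not called, at 2164, 1444 and 1374 at gd18 and 1670.3, 1887 and 1668 at gd14 (log2 change -0.10 ± 0.16 SE, adjusted p = 0.686). Aldh1a1 was not called (log2 change 0.05 ± 0.10 SE, adjusted p = 0.717).

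Genes of tissues that a dissection could include were also measured. Of 18 mesonephros and duct genes, 3 were higher and 3 lower, near the 20.6% and 15.9% of all genes. Higher were the keratins Krt8, Krt18 and Krt19, at 1.18, 1.27 and 1.19, and lower were Emx2, Lhx1 and Cdh1. Lhx1 and Cdh1 were also counted in the spermatogonial list above. Emx2, a homeobox gene of the urogenital ridge, read 196, 215 and 323 on the gd18 arrays, against 638, 806 and 819.9 on the gd14 arrays (log2 change -1.56 ± 0.20 SE, adjusted p = 2.28e-05). Pax8, of kidney and duct, was not called (log2 change 0.51 ± 0.26 SE, adjusted p = 0.136), though it was called higher without gd18 replicate 4. Of 15 adrenal genes, 3 were higher and 3 lower, again near the shares of all genes. Without gd18 replicate 5, 5 adrenal genes were lower, and with all 20 testis arrays in the fit 1 was called in each direction. Cyp21a1, the adrenal 21-hydroxylase, read 114, 189 and 101 at gd18 and 85.7, 128 and 196 at gd14 and was not called (log2 change 0.00 ± 0.31 SE, adjusted p = 0.993). Pnmt, which makes adrenaline, read 788, 815 and 339.6 on the gd18 arrays, against 37.6, 51.9 and 121 on the gd14 arrays (log2 change 2.86 ± 0.37 SE, adjusted p = 2.75e-05), while its second probe set was not called. Th, the first enzyme of catecholamine synthesis, was lower at -1.35 ± 0.29 (log2 ± SE), a call lost with all 20 testis arrays in the fit.

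Of 21 striated muscle genes, 8 were higher and 1 lower (2 without gd14 replicate 11), against 20.6% and 15.9% of all genes. The median was 0.83 (0.56 without gd18 replicate 6). Myh6 and Myh7, cardiac myosin heavy chains, read 288, 366 and 617 and 343, 389.7 and 424 on the gd18 arrays, and 97.5, 109 and 99.7 and 166, 66.5 and 129.5 on the gd14 arrays (1.78 ± 0.23 and 1.58 ± 0.30, log2 ± SE). Acta1, the skeletal actin, was not called, at 84.3, 86.8 and 156 at gd18 and 163, 154 and 60.8 at gd14 (log2 change -0.13 ± 0.34 SE, adjusted p = 0.8). Of 18 neural and Schwann cell genes, 5 were higher and 2 lower, against 20.6% and 15.9% of all genes. With all 20 testis arrays in the fit 2 neural members were higher and 1 lower. Nefm, a neurofilament chain, read 848, 952 and 421 on the gd18 arrays, against 117, 103 and 94.3 on the gd14 arrays (log2 change 2.51 ± 0.27 SE, adjusted p = 6.21e-06), and Erbb3, a receptor of Schwann cells, 431, 434 and 506 on the gd18 arrays, against 1219, 857 and 1214 on the gd14 arrays (log2 change -1.21 ± 0.15 SE, adjusted p = 1.71e-05). Of 29 Hox genes, 4 were higher and 2 lower, shares below those of all genes. Hoxd8 was higher (log2 change 0.61 ± 0.12 SE, adjusted p = 0.00136), though a second probe set was not called, and every other Hox call was lost without at least 1 of the 6 arrays. Without gd18 replicate 6 or any single gd14 array, 1 or 2 Hox genes were higher, and without any single array 0 or 1 were lower. With all 20 testis arrays in the fit 1 was higher and 0 lower. Of 7 sex-linked genes tested, 3 were lower and 0 higher, against 15.9% and 20.6% of all genes, with a median of -0.47. The Y-linked genes Eif2s3y and Usp9y were lower at -1.17 ± 0.13 and -2.01 ± 0.24 (log2 ± SE), and Kdm5d was not called (log2 change -0.06 ± 0.14 SE, adjusted p = 0.756). Uty, also Y-linked, was lower at -0.47 (limma adjusted p = 0.049). The Uty call was lost in most alternative fits, and other probe sets of Uty were not called. Xist, which silences the X chromosome in females, read 67.8, 46.0 and 67.2 at gd18 and 91.6, 62.7 and 86.6 at gd14 and was not called.

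A large share of the 4-day change was not called in either 2-day step. Between gd16 and gd14, 2824 genes (19.7%) were called, and between gd18 and gd16, 1681 (11.7%). Of the 5234 genes called over 4 days, 2117 (40.4%, and 14.8% of those tested) were called in neither step, 1246 higher and 871 lower. The 3 comparisons share arrays, and a sum of 2 steps has to be larger than each when both run the same way, so this count is fixed in part by the design. The changes of these genes were smaller, with a median absolute log2 change of 0.50 against 0.77 for the other called genes. The 8 largest of them with the gd16 mean between the ends were Islr2, Elobl, Stfa2l1, Mndal, Kcne1, Apba2, Fabp4 and Esm1.

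Several of these 8 genes had uneven arrays. Islr2, a leucine-rich membrane protein of neurons, read 1660.1, 209 and 398 on the gd18 arrays, against 94.4, 139.5 and 17.6 on the gd14 arrays, the first far above the rest (log2 change 2.59 ± 0.55 SE, adjusted p = 0.00191). Apba2, an adaptor of synaptic vesicles, read 45.5, 56.1 and 42.1 on the gd18 arrays, against 274, 238 and 239 on the gd14 arrays, with 57.7, 223 and 112 at gd16 (log2 change -1.96 ± 0.37 SE, adjusted p = 0.000772), and lost its call with all 20 testis arrays in the fit. Fabp4, the fatty acid-binding protein of adipocytes, macrophages and capillary endothelium, read 149, 122 and 161 on the gd18 arrays, against 20.8, 49.9 and 4.67 on the gd14 arrays (log2 change 1.91 ± 0.39 SE, adjusted p = 0.00133). Esm1, an endothelial proteoglycan, read 14.5, 6.09 and 14.2 on the gd18 arrays, against 134, 73.6 and 104 on the gd14 arrays (log2 change -1.87 ± 0.45 SE, adjusted p = 0.00425). Fabp4 was dim on every gd14 array and Esm1 on every gd18 array, and the stages did not overlap for either. Stfa2l1, a stefin, read 157, 249 and 499 on the gd18 arrays, against 55.7, 20.2 and 38.2 on the gd14 arrays (log2 change 2.33 ± 0.47 SE, adjusted p = 0.00128). Mndal, an interferon-inducible gene, rose by 2.25 ± 0.50 (log2 ± SE), with a second probe set not called. Elobl was lower at -2.38 ± 0.42 and had a gd18 mean near background. Kcne1, a potassium channel subunit, read 281, 213 and 11.1 on the gd18 arrays, against 2.35, 13.2 and 7.62 on the gd14 arrays with overlap through gd18 replicate 6 (log2 change 2.17 ± 0.60 SE, adjusted p = 0.0108), and its call was lost without gd18 replicate 4 or 5. Another, dim probe set of Kcne1 was not called, at 0.02.

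Genes of the lists above were among the 2117 as well, with the log2 change of each step given after the 3 means. Sox8 averaged 151 ± 32.5 at gd14, 237 ± 66.7 at gd16 and 380.1 ± 142 at gd18, with 0.56 over the first step (adjusted p = 0.131) and 0.61 over the second (adjusted p = 0.14). Cdh5 averaged 243 ± 98.5 at gd14, 410.0 ± 109.9 at gd16 and 610.2 ± 226 at gd18, with 0.74 over the first step (adjusted p = 0.0676) and 0.51 over the second (adjusted p = 0.251). Nr1d2 averaged 2433 ± 309.7 at gd14, 1923 ± 471 at gd16 and 1347 ± 356 at gd18, with -0.35 over the first step (adjusted p = 0.163) and -0.51 over the second (adjusted p = 0.0674). Bub1b changed by -0.43 over the first step (adjusted p = 0.0661) and -0.15 over the second (adjusted p = 0.61). Each was called over 4 days and in neither step.

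Some germ cell and epithelial genes had a lower mean at gd16 than at gd14 and gd18. Sox2 averaged 1387 ± 322 at gd14, 47.8 ± 35.4 at gd16 and 384 ± 164 at gd18, with a log2 change of -4.45 over the first step (adjusted p = 5.54e-06) and 2.59 over the second (adjusted p = 0.000843). Cdh1 read 1553, 1470.0 and 1292 on the gd14 arrays, 67.1, 168 and 113 on the gd16 arrays and 257, 287 and 275 on the gd18 arrays, with -3.46 over the first step (adjusted p = 4.16e-07) and 1.16 over the second (adjusted p = 0.00319). Lhx1 averaged 226 ± 80.5 at gd14, 16.3 ± 16.1 at gd16 and 55.2 ± 5.15 at gd18, with -2.70 over the first step (adjusted p = 4.07e-05) and 1.08 over the second (adjusted p = 0.0315). Lin28a averaged 1189.7 ± 136 at gd14, 508 ± 165 at gd16 and 738 ± 97.1 at gd18, with -1.23 over the first step (adjusted p = 0.000302) and 0.56 over the second (adjusted p = 0.0561). The second step was called for Sox2, Cdh1 and Lhx1 and not for Lin28a. The gd16 means of Sox2 and Lhx1 and the gd18 mean of Lhx1 lay near background. The second step of Lhx1 thus ran between near-background means. The comparison of the ends alone gave all 4 as lower and did not show the gd16 level.

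The shares of members called in each list are drawn for all 32 lists together.

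**Figure D5:**
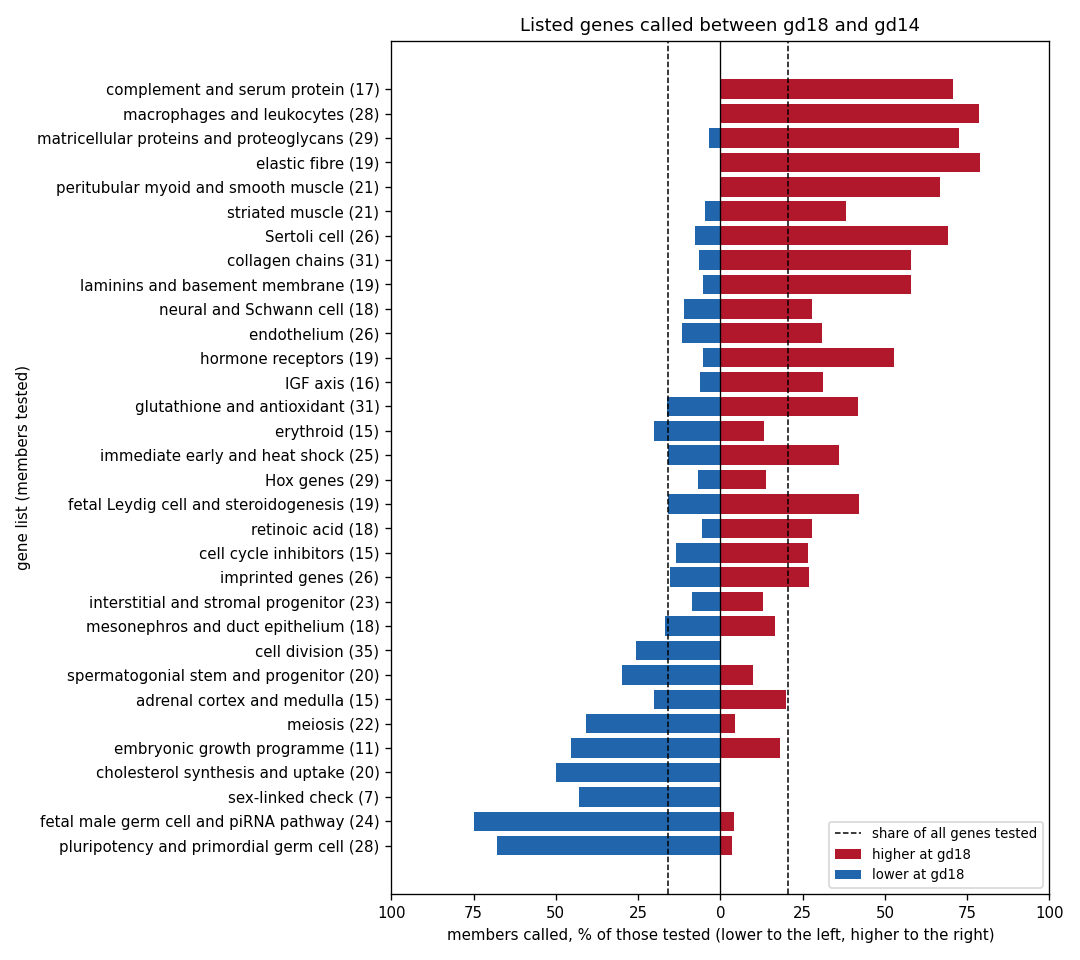
Members of 32 gene lists called between gd18 and gd14, as a percentage of the members tested (in brackets), higher at gd18 to the right in red and lower to the left in blue, sorted by median change. Dashed lines mark the shares of all genes tested, 20.6% higher and 15.9% lower. The lists of pluripotency and fetal germ cell genes reach farthest to the left, and those of the elastic fibre and macrophages farthest to the right.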

How the data were processed

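RNA from whole testes was measured on 1-colour Affymetrix arrays. The authors' deposited intensity values, made with GCOS per the submitters' processing notes, are on a linear scale. The GCOS version and the summary algorithm were not given in the sources used here. Every array's mean without the lowest and highest 2% of probe sets was 500.0, so the values were used as deposited, with no further normalization. Gene names came from the platform table, 34741 of 34945 single-gene probe sets being matched through Entrez to the GRCm38.p6 table. A probe set was kept if, on 3 or more of 20 testis arrays, its value lay above that array's 40th percentile, and each gene was taken by the kept probe set with the highest mean. The log2 of intensity plus 22.4, the 20th percentile of all testis values, was computed from the deposited intensities.

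Stage means of gd14, gd16, gd18 and pnd2, 12 arrays of single animals, were fitted with limma 3.58.1 in R 4.3.3 (eBayes with trend, 8 residual and 7.39 prior degrees of freedom), and p-values were adjusted over all 14338 genes by Benjamini-Hochberg. All SE and adjusted p come from this fit. The labels name no batch, and the p-values measure the spread between the animals sampled. The script was tested on simulated data. The gd11 and gd12 arrays hold pools. They entered the filter, the pseudocount and the choice of probe set, and 1 alternative fit. The other alternatives concerned the arrays in the fit, normalization, pseudocount, filter, probe set and each array left out. In the fits that leave out an array, the other stages share the estimate of the spread.

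Members and lists were chosen with earlier results of these data known, and no list was tested as a set. Some genes belong to several lists, such as Cdh1, Lhx1, Mc2r and Thbs2, and are counted in each. Named were the 4 marker genes, the 12 largest rises and falls among called genes without overlap, up to 4 called members of each list in each direction and its first 4 members, the 8 largest changes called in neither step with the gd16 mean between the ends, and differing probe sets of these. Genes outside this rule are marked where they are given. Upstream sequences are RefSeq's, and 14 pairs of a motif and a list were searched after the values were seen.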

Additional observations from a re-analysis of the deposited data

How the results depend on the processing

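The count of genes called, 5234, moved to 3771 with all 20 testis arrays in the fit, 4609 with the 6 arrays of gd18 and gd14 alone, 5172 with a pseudocount of 5, 5229 after quantile normalization, 4994 with no filter on dim probe sets and 4329 with the probe set of largest spread for each gene. With a pseudocount of 100, 440 genes were at least 2-fold higher and 230 at least 2-fold lower, against 903 and 386, since a larger pseudocount shrinks the change of dim genes. With every single-gene probe set tested, 7854 were called, 3485 lower, 604 at least 2-fold lower and 3653 in neither 2-day step, counts of probe sets rather than genes. Leaving out 1 of the 6 arrays gave 4054 to 4917 genes called, 2343 to 2711 higher, 1711 to 2206 lower, 863 to 917 at least 2-fold higher, 331 to 471 at least 2-fold lower and 1697 to 1921 in neither step. Of 218 named genes called, 154 were called in the same direction under all 15 alternatives that gave a value, and 54 lost the call with all 20 testis arrays in the fit. By the probe set of largest spread, Dnmt3a turned to -0.13 (limma adjusted p = 0.517) and Igf1r to -0.40 (adjusted p = 0.24), and no other named gene called turned its sign. Of 93 called named genes with another probe set past the filter, 45 had one that differed in sign or call, and 0 other probe sets were called the opposite way. The causes were not tested where none is given. No paired analysis was possible because the replicate numbers run on over the series and the stages share none. Detection calls were not used here, so levels near background have no call of presence.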

Other observations

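Genes of complement and serum proteins that tissues also make were mostly higher at gd18. Of 17 tested, 12 were higher and 0 lower, against 20.6% and 15.9% of all genes. The median log2 change was 1.16, against 0.05 over all genes. Serping1, the C1 inhibitor, read 3563, 3473 and 3895 on the gd18 arrays, against 921, 952 and 1063 on the gd14 arrays (log2 change 1.87 ± 0.10 SE, adjusted p = 5.95e-09). C2, a complement protease, read 342, 307 and 347 on the gd18 arrays, against 62.7, 174 and 101 on the gd14 arrays (log2 change 1.48 ± 0.24 SE, adjusted p = 0.000248). The stages did not overlap for either gene. Cp, encoding ceruloplasmin, read 328, 392 and 247 on the gd18 arrays, against 14.5, 47.9 and 114 on the gd14 arrays (log2 change 2.26 ± 0.41 SE, adjusted p = 0.000567), while 3 dimmer probe sets were not called. Cfb, of the alternative complement pathway, was not called, with both stages near background (log2 change -0.35 ± 0.43 SE, adjusted p = 0.561). Albumin, a defining liver product, read 22.6, 31.4 and 73.2 at gd18 and 48.7, 30.6 and 76.3 at gd14 and was not called (log2 change -0.23 ± 0.57 SE, adjusted p = 0.796). Afp, the alpha-fetoprotein of fetal liver and yolk sac, was higher at 1.15 ± 0.27 (log2 ± SE). The part of serum or liver RNA in these values was not tested. Alb and Afp were named after their values were seen.

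Genes of glutathione and antioxidant defence were more often higher than lower. Of 31 tested, 13 were higher and 5 lower, against 20.6% and 15.9% of all genes, the lower count being near its share. The median was 0.28, and with all 20 testis arrays in the fit 6 were higher and 3 lower. Without gd18 replicate 4 or gd14 replicate 10 or 12, 3 were lower. Sod3, the extracellular superoxide dismutase, read 635, 447 and 399 on the gd18 arrays, against 90.0, 152 and 70.6 on the gd14 arrays (log2 change 2.05 ± 0.30 SE, adjusted p = 8.09e-05). Gsta2 and Gsta4, alpha-class glutathione transferases, were higher at 0.89 ± 0.16 and 0.49 ± 0.10 (log2 ± SE), the call of Gsta2 being lost with all 20 testis arrays in the fit. Gss, the glutathione synthetase, was lower, at 325, 248 and 329.9 at gd18 and 587, 449.5 and 580.5 at gd14 (log2 change -0.80 ± 0.17 SE, adjusted p = 0.00185). Hmox1, the inducible heme oxygenase, was lower at -0.54 ± 0.17 (-0.30 without gd18 replicate 4). Its call was lost without gd18 replicate 4 or gd14 replicate 11 or 12, with the 6 arrays of gd18 and gd14 alone and with all 20 testis arrays in the fit.

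Immediate early and heat shock genes were called in both directions. Of 25 tested, 9 were higher and 4 lower, against 20.6% and 15.9% of all genes, the lower count being near its share. Egr1, an immediate early transcription factor, read 3516, 2746 and 2822 on the gd18 arrays, against 1128, 1457 and 1326 on the gd14 arrays (log2 change 1.20 ± 0.20 SE, adjusted p = 0.000282). Fos, of the AP-1 factor, was higher at 1.39 ± 0.23 (log2 ± SE), and Jun, its partner, was not called at 0.26 ± 0.21. Hsp90aa1, an HSP90 chaperone, read 12294, 14339.5 and 15799.7 on the gd18 arrays, against 28772, 24927 and 27098 on the gd14 arrays, without overlap (log2 change -0.93 ± 0.09 SE, adjusted p = 1.7e-06). Hsph1 and Hspa8, chaperones of the HSP110 and HSP70 families, were lower at -1.14 ± 0.10 and -0.59 ± 0.08, while a dim second probe set of Hspa8 was not called. Hspb1, a small heat shock protein named after its values were seen, was also higher, with 10812, 9421 and 7073 at gd18 and 3941, 4748 and 4804 at gd14 (adjusted p = 2.29e-05).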
